A study of Mus musculus with 6 samples.

Results

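Cartilage matrix genes that SOX9 is known to control in chondrocytes were followed in the infarct scar of mice with and without a fibroblast deletion of Sox9. A list of 10 genes was matched by gene symbol to the deposited table, and 9 of its 14798 genes were members: Col2a1, Col9a2, Col11a1, Col11a2, Acan, Comp, Chad, Matn2 and Cilp. Scrg1 was not analysed here. All 9 passed the filter on low counts.

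RNA came from the scar of the left ventricle, collected 6 weeks after a myocardial infarction. The infarction was made by LAD ligation, tying off a coronary artery, at 10 weeks of age. Source labels give the mice as 14 to 16 weeks old. Sox9-deletion scars (genotype label Sox9 fl/perCre, 3 libraries) carried a floxed Sox9 allele and a transgene called Per_cre, which deletes Sox9 only in fibroblasts according to the series text. Control scars (genotype label Sox9 fl/fl, 3 libraries) carried floxed Sox9 alleles, and their label names no Cre, so the presence of Cre and the loss of Sox9 cannot be told apart. Neither the promoter behind Per_cre nor whether both alleles of the deletion mice were floxed is given in the sources used here. Since no label ties a library to its own animal, p-values reflect how much these samples vary, and that variation may be technical.

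SOX9 is the transcription factor that sets the chondrocyte programme, and it acts with SOX5 and SOX6 on enhancers of type II, IX and XI collagen genes and of aggrecan. In cartilage, type II collagen forms heterotypic fibrils with type XI collagen inside them and type IX collagen on their surface, and aggrecan holds water between the fibrils. COMP, chondroadherin, matrilins and CILP connect these parts, and several of them are also made by fibroblasts of tendon, ligament and heart.

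Total counts ran from 22666770 to 48515962 in deletion libraries and from 18538171 to 55523974 in control libraries. Levels are CPM, counts scaled to library size, with TMM factors. Replicate 1 of both groups stood apart from replicates 2 and 3. All counts in replicates 2 and 3 of both groups were even numbers, against 49.3% of genes in deletion replicate 1 and 49.9% in control replicate 1, and the ribosomal precursor Rn45s was at 22484 and 12176 CPM in these 2 libraries, against 623 to 1004 CPM in the other 4. The labels name no batch, so this is called the library split. Deletion replicate 1 also had the highest mean log2 level of 20 cardiomyocyte genes, 12.6 against 10.7 to 11.6 in the other 5 libraries, and the lowest summed level of 15 fibroblast genes, 7912 CPM against 15350 to 18793 CPM. Control replicate 3 was the library with Xist, the RNA of the inactive X chromosome, at 812 CPM, against 0.844 to 7.61 CPM in the others. Ddx3y, a gene of the Y chromosome, was at 0.596 CPM in control replicate 3, against 122 to 146 CPM in the others. By these genes control replicate 3 was female and the other 5 libraries, every deletion library included, were male. In bulk tissue, fewer cells of a type and less RNA per cell cannot be told apart. Each of these features moves with results given here, and their part in those results was not tested unless a value is given.

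Sox9 was at 42.1, 51.7 and 55.8 CPM in deletion replicates 1 to 3, against 71.1, 75.8 and 67.7 CPM in control replicates 1 to 3. Every deletion library was below every control library. Its log2 fold change (deletion over control, as for all values of this kind) was -0.52 ± 0.15 (SE), with an adjusted p of 0.564 in edgeR's quasi-likelihood test. DESeq2 with a term for the library split, a fit added after seeing the data, gave -0.52 with an adjusted p of 0.00289. The mean level was 49.9 ± 7.02 CPM in deletion scars, against 71.6 ± 4.07 CPM in controls (SD, n = 3 each).

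Of the 9 genes, 6 have a promoter entry in RefSeq (GRCm38.p6, the assembly also called mm10): Acan, Col9a2, Col11a1, Col11a2, Cilp and Chad. Each entry spans 250 bases before to 50 bases after the start site. Promoters of 3 genes are shown to set the pair with the lowest log2 fold changes among these 6, Col9a2 and Chad, beside Col11a2, which had the smallest difference. Capitals mark the GC box GGGCGG, its reverse complement, and the TATA box TATAAA, searched on both strands.
Col9a2 (chr4:121039316-121039615, plus strand): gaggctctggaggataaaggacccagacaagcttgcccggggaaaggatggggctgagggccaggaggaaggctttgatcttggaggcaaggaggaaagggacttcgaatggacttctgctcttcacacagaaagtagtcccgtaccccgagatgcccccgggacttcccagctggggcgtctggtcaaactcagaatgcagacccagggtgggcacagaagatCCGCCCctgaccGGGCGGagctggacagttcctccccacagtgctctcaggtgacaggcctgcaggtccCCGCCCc
Chad (chr11:94564797-94565096, plus strand): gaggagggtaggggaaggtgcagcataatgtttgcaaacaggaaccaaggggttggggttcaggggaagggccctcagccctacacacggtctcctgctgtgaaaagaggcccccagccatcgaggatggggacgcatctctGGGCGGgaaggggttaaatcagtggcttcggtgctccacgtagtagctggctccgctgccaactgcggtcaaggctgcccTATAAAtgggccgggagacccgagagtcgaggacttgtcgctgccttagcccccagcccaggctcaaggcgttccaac
Col11a2 (chr17:34038888-34039187, plus strand): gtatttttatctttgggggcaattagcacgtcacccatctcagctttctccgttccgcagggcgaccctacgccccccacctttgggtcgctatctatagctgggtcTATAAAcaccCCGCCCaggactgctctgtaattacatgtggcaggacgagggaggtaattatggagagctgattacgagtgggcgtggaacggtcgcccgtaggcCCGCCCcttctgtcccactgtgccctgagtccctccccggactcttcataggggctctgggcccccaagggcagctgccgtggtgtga
Among these 6 windows only the Acan one holds matches that overlap each other, 2 of its 3 GC boxes. A core bound by SOX proteins, ACAATG, was searched on both strands as well, and no match lay in any of the 6 windows. The variant core of SOX proteins, with the letters ACAAAG, was searched in the same way. It was also found in none of them. Of the 32851 promoters of the table, 28.6% hold at least 1 of these cores, and 6 windows are too few to be compared with that share. Only these exact letters were searched, so other forms of a SOX site may lie in the windows. The Col9a2 window holds 3 GC boxes and no TATAAA, the Chad window holds 1 GC box and a TATAAA beginning 28 bases before the start site, and the Col11a2 window holds 2 GC boxes and 1 TATAAA. The GC box occurs in 35.7% and the TATA box in 13.6% of all promoters of the table. These matches describe the printed windows only. Enhancers of these genes lie outside them and were not used here.

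Levels per transcript length showed which of these genes the scar expressed most. In deletion scars the order was Comp at 187 ± 151 CPM per kb, Cilp at 119 ± 46.2, Matn2 at 23.8 ± 7.88, Chad at 23.3 ± 22.3 and Col11a1 at 4.77 ± 3.58 CPM per kb (SD, n = 3). Acan (0.825), Col11a2 (0.662), Col9a2 (0.347) and Col2a1 (0.106 CPM per kb) followed. Control scars began with Comp at 376 ± 161, Cilp at 158 ± 28.9, Chad at 74.0 ± 46.1, Matn2 at 27.9 ± 11.2 and Col11a1 at 9.16 ± 5.63 CPM per kb (SD, n = 3). Col2a1 (2.49), Acan (1.79), Col9a2 (1.499) and Col11a2 (0.758 CPM per kb) followed there. Type II collagen, the most abundant protein of cartilage fibrils, was last in deletion scars and sixth in controls. That control place rests on control replicate 3, at 6.01 CPM per kb for Col2a1 against 0.285 and 1.18 in control replicates 1 and 2, whose mean of 0.732 is below that of the other 8 genes except Col11a2. Col2a1 was above Acan in 1 of 3 controls. Ranges of neighbours did not overlap only between Cilp and Matn2 and between Col9a2 and Col2a1 in deletion scars. In controls they did not overlap between Comp and Cilp, Cilp and Chad, Matn2 and Col11a1, and Col9a2 and Col11a2. Comp and Cilp together gave 83.1% to 85.5% of the summed CPM of the 9 genes in deletion libraries and 77.2% to 89.2% in control libraries.

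**Figure D1:**
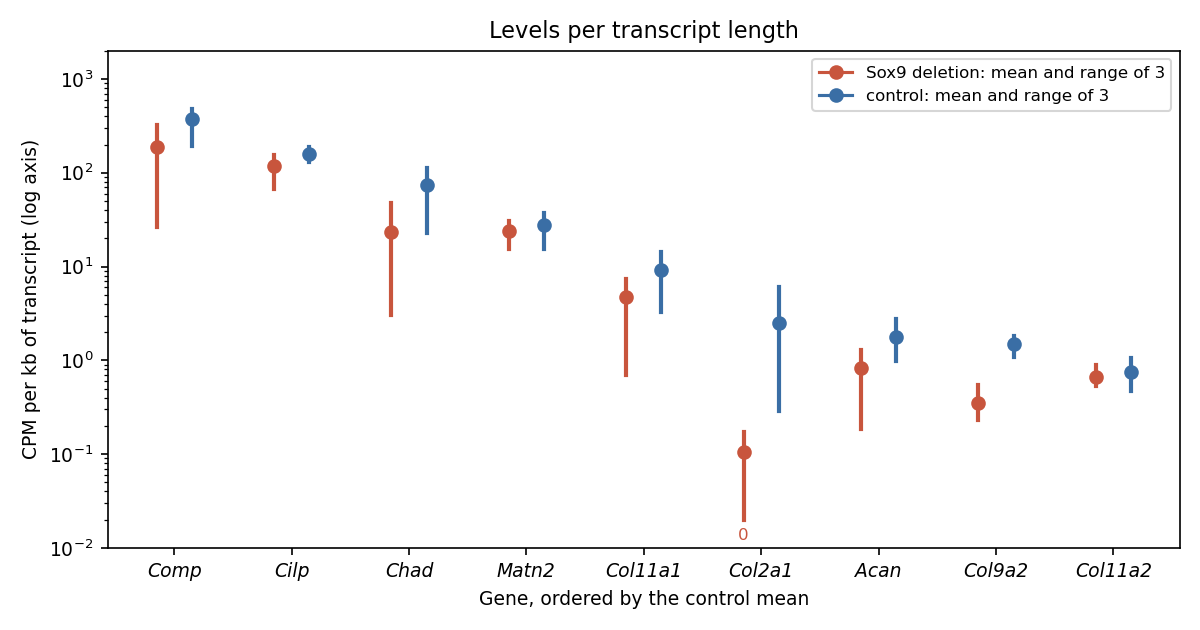
Level of each gene in CPM per kb of transcript on a log axis, with dots for the mean and lines for the range of 3 libraries in Sox9-deletion (left of each pair) and control scars (right). Comp and Cilp lead in both groups, and Col2a1 is last in deletion scars, where 1 library had no read (its line is cut at 0.02).

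Over all 6 libraries, Col2a1 and Col9a2 had the lowest log2 fold changes of the set, whereas the other 2 collagen genes, Col11a1 and Col11a2, had smaller differences than Chad, Acan and Comp. The order of Col11a1 and Comp depended on the libraries used: in replicates 2 and 3 alone they were at -0.849 and -0.829. Col2a1, the type II collagen gene (chromosome 15, 97975602 to 98004724 in mm10), had 0, 32 and 42 counts in deletion replicates 1 to 3, against 25, 314 and 1768 counts in control replicates 1 to 3. These were 0, 0.699 and 0.845 CPM in deletion scars, against 1.39, 5.74 and 29.3 CPM in controls. The count of 0 allows a level of up to 0.158 CPM (3 counts; counting error only). All deletion libraries were below all controls, and the controls themselves spanned 21.0-fold. Fitted over all 6 libraries, Col2a1 had a log2 fold change of -4.43 ± 1.32 (SE), an edgeR unadjusted p of 0.0132 and an adjusted p of 0.564. It was -2.71 without control replicate 3, the library with Xist. Col2a1 was below Col11a1 per kb in all 6 libraries: Col11a1 was 43.1 and 42.8 times as high in deletion replicates 2 and 3, against 2.41 to 11.4 times in controls.

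Col9a2, the alpha-2 chain of type IX collagen that decorates type II fibrils (chromosome 4, 121039566 to 121055325), was at 0.633, 0.699 and 1.49 CPM in deletion scars, against 4.90, 2.93 and 4.37 CPM in controls. The groups were separate: the lowest control was 1.96 times the highest deletion library. Control replicate 1 was the highest of all, unlike in the other 8 genes. Its log2 fold change of -2.08 ± 0.44 (SE) had the lowest unadjusted p of the set, 0.00231 (edgeR adjusted p = 0.564). It stayed between -2.59 and -1.89 when each library was left out in turn.

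The type XI collagen genes differed from each other. Col11a1 (chromosome 3, 114030540 to 114220756), whose chain nucleates and limits the width of type II fibrils, was at 5.28, 47.2 and 56.7 CPM in deletion scars, against 24.8, 74.7 and 110 CPM in controls. Deletion replicates 2 and 3 exceeded control replicate 1, so the groups overlapped. The log2 fold change was -0.94 ± 0.85 (SE, edgeR adjusted p = 0.689). It was -0.45 without deletion replicate 1, -0.45 without control replicate 3 and -1.41 without deletion replicate 3. Its partner Col11a2 (chromosome 17, 34039138 to 34066684) was at 3.33, 3.58 and 5.55 CPM in deletion scars, against 2.95, 4.68 and 6.66 CPM in controls. All deletion values of Col11a2 lay within the wider control range. Its log2 fold change was -0.20 ± 0.37 (SE, edgeR adjusted p = 0.844), and 0.12 without control replicate 3. Per kb, Col11a1 was 1.31, 10.8 and 8.40 times Col11a2 in deletion replicates 1 to 3, against 6.92, 13.1 and 13.6 times in control replicates 1 to 3.

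**Figure D2:**
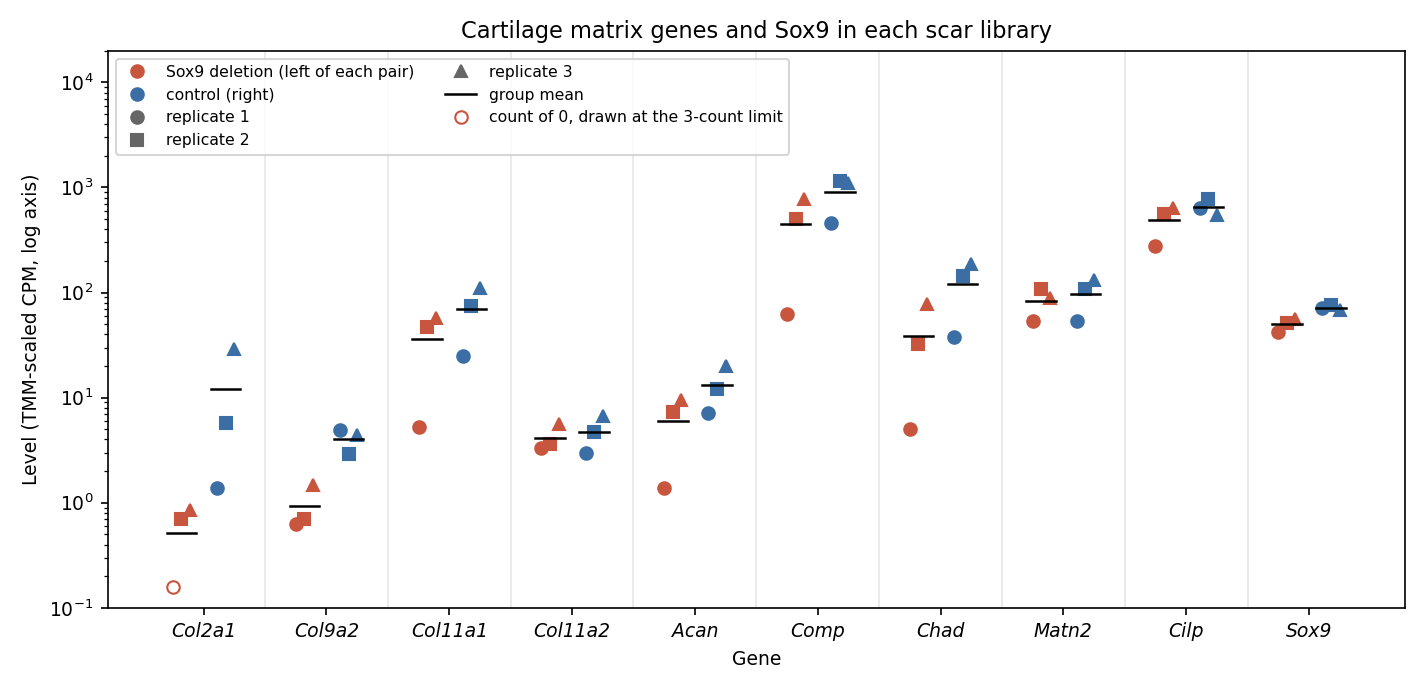
TMM-scaled CPM on a log axis in each library for the 9 genes and Sox9, with Sox9-deletion libraries left and control libraries right of each pair, marker shape giving the replicate and black bars the group mean; the open marker is a count of 0 drawn at its 3-count limit of 0.158 CPM. Col2a1, Col9a2 and Sox9 are the genes whose groups do not overlap, and deletion replicate 1 is the lowest library in 8 of the 9 matrix genes.

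Aggrecan (Acan, chromosome 7, 79053483 to 79115099), the large proteoglycan that gives cartilage its swelling pressure, was at 1.37, 7.26 and 9.54 CPM in deletion scars, against 7.18, 12.1 and 20.1 CPM in controls. Deletion replicates 2 and 3 were just above control replicate 1 and below the other controls. The log2 fold change was -1.10 ± 0.68 (SE, edgeR adjusted p = 0.591). It was -0.66 without control replicate 3 and -0.67 without deletion replicate 1.

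Among the bridging glycoproteins, Comp was the most abundant. COMP is a pentameric thrombospondin that binds collagens, and its gene (chromosome 8, 70373548 to 70382066) was at 62.8, 503 and 781 CPM in deletion scars, against 459, 1158 and 1099 CPM in controls. Deletion replicates 2 and 3 lay between control replicate 1 and the other controls. The log2 fold change of -1.01 ± 0.82 (SE, edgeR adjusted p = 0.662) was -0.51 without deletion replicate 1 and -1.68 without deletion replicate 3. Chad (chromosome 11, 94565074 to 94569127) encodes chondroadherin, a leucine-rich repeat protein that binds integrins and collagen. Its level was 5.07, 32.4 and 77.6 CPM in deletion scars, against 37.8, 142 and 185 CPM in controls, and only deletion replicate 3 reached into the control range. The log2 fold change was -1.66 ± 0.95 (SE, edgeR adjusted p = 0.570), and -2.69 without deletion replicate 3. It was -1.16 without deletion replicate 1 and -1.23 without control replicate 3.

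Matn2 and Cilp are among the members that are also made outside cartilage. Matrilin-2 is a filament-forming adaptor of many connective tissues, and Matn2 (chromosome 15, 34306681 to 34436240) was at 53.3, 108 and 88.9 CPM in deletion scars, against 53.9, 108 and 130 CPM in controls. Within replicates 1 and 2 the groups were nearly equal, and the log2 fold change was -0.23 ± 0.38 (SE, edgeR adjusted p = 0.829). It was 0.0383 without control replicate 3. Matn2 shares 70 exonic bases with the gene 9430069I07Rik on the opposite strand in GENCODE, and the other 8 genes share none with any gene. Cilp encodes the cartilage intermediate layer protein, which cardiac fibroblasts also secrete (chromosome 9, 65265180 to 65280605). It was at 275, 561 and 638 CPM in deletion scars, against 640, 782 and 544 CPM in controls. Deletion replicates 2 and 3 were both above control replicate 3, and the log2 fold change was -0.42 ± 0.34 (SE, edgeR adjusted p = 0.662). It was -0.14 without deletion replicate 1 and -0.65 without deletion replicate 3.

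As a set, all 9 genes had a negative log2 fold change, against 52.4% of the 14771 genes tested, with a median of -1.01 against -0.0174 over all genes. None passed an adjusted p of 0.05 in edgeR, nor did any gene (0% of those tested, with 1232 genes at an unadjusted p below 0.05). At an unadjusted p below 0.05 there were 2 of 9 members (Col2a1 and Col9a2), against 3.04% of all genes in the same direction, and no member was among the 5.3% that were higher. The groups did not overlap in the same 2 members, against 8.6% of all genes. The lowest library was deletion replicate 1 in 8 of 9 members and the highest was control replicate 3 in 6 of 9. Without deletion replicate 1 the median was -0.51 and all 9 stayed negative. Without control replicate 3 it was -0.66 and 7 of 9 were negative, and without deletion replicate 3 it was -1.58. Members and lists were chosen with earlier results of these data known, so these counts are a description.

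Both sides of the library split were also taken alone. The replicate 1 pair gave a negative difference in 8 of 9 members, against 49.7% of all genes, with a median of -2.35. Replicates 2 and 3 alone gave 9 of 9, against 55% of all genes, with a median of -0.85. Both differences were negative in 36.6% of all genes. Chad was at -2.89 in the replicate 1 pair and -1.59 in the others, Comp at -2.87 and -0.83, and Col11a1 at -2.22 and -0.85. Col2a1, at -4.51 in replicates 2 and 3, had no read in deletion replicate 1. Its level in control replicate 1 was 8.79 times the 3-count limit there. This sets 1 library against 1 and leaves out the counting error of the 25 counts in control replicate 1. With a term for the split in edgeR, standard errors shrank to 0.36 for Acan, 0.32 for Col11a1, 0.46 for Comp and 0.42 for Chad, and their log2 fold changes were -1.32, -1.24, -1.47 and -1.96. In that fit 6 of 9 members had an unadjusted p below 0.05, against 8.87% of all genes in the same direction (13.8% were higher), and 0 of 9 passed after adjustment, against 0.00677% of all genes (1 gene). Adjusted p in edgeR with the split term was 0.0648 for Col2a1, 0.0751 for Col9a2, 0.0781 for Chad, 0.106 for Col11a1, 0.115 for Acan and 0.143 for Comp.

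DESeq2 gave more calls than edgeR. Without the split term it called 1 of 9 members, Col9a2 (log2 fold change -2.08, DESeq2 adjusted p = 0.0116), against 0.129% of all genes in the same direction, and 0 members among the 0.224% called higher. With the split term, it called 5 of 9, against 4.12% of all genes in the same direction, and 0 among the 8.83% called higher. These were Col2a1 (DESeq2 adjusted p = 1.16e-08), Chad (1.81e-05), Col9a2 (0.000559), Col11a1 (0.00151) and Acan (0.00552). Comp, at -1.47, did not pass (DESeq2 adjusted p = 0.147), nor did Cilp, Matn2 and Col11a2, whose DESeq2 adjusted p ran from 0.221 to 0.815. Even counts were halved only in an edgeR fit without the split term. How far the DESeq2 calls rest on the even counts was not tested.

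**Figure D3:**
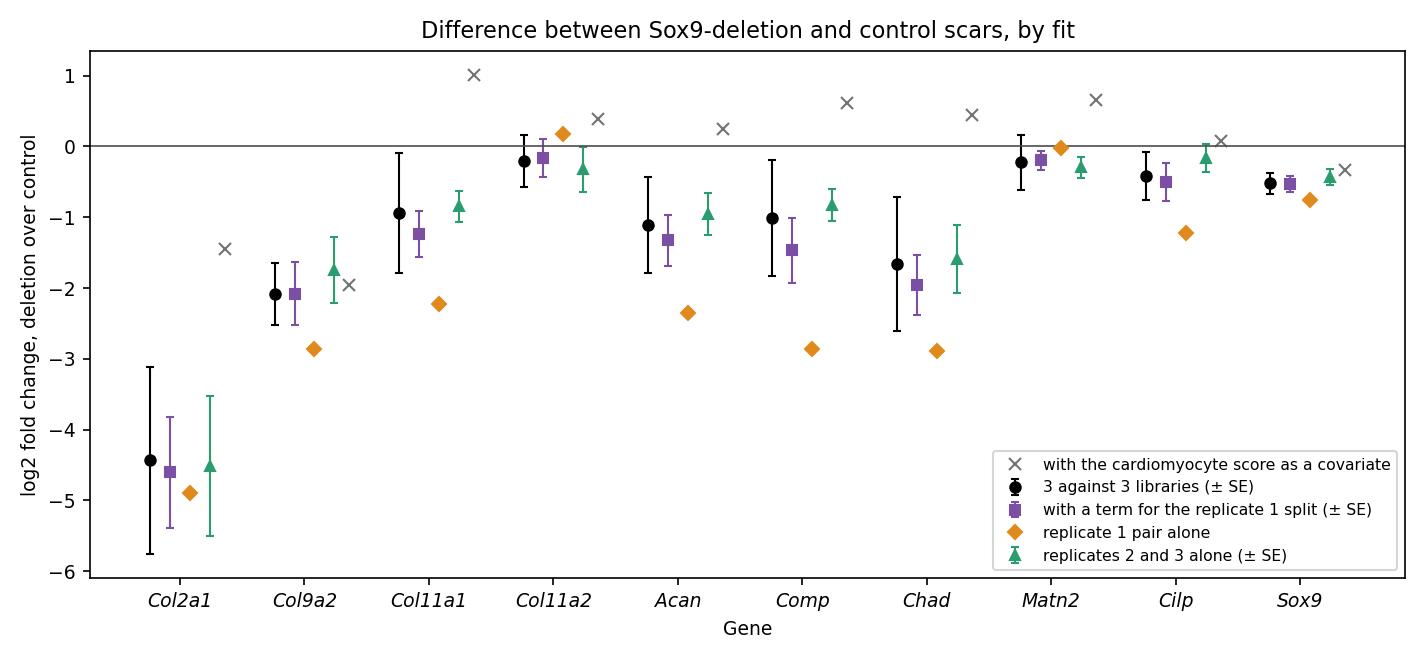
Log2 fold change, Sox9 deletion over control, for the 9 genes and Sox9 in the fit of 3 against 3 libraries, with the library split as a term, in each side of the split alone, and with the cardiomyocyte level as covariate; bars are ± SE for the 3 fits drawn with bars, and the Col2a1 value of the replicate 1 pair rests on a count of 0 and depends on the prior count. The split term narrows the bars of Chad, Comp, Col11a1 and Acan, and with the covariate only Col2a1, Col9a2 and Sox9 stay below 0.

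Levels of genes typical of several cell types also differed between the groups, and whether the makeup of the samples differed was not tested. With the mean log2 level of the 20 cardiomyocyte genes as a covariate, 2 of 9 members stayed negative, against 50.8% of all genes: Col9a2 at -1.96 (edgeR adjusted p = 0.527) and Col2a1 at -1.45 (edgeR adjusted p = 0.773). The other 7 had positive values from 0.0820 for Cilp to 1.01 for Col11a1, and none passed. That cardiomyocyte level was 12.6, 11.6 and 11.5 in deletion replicates 1 to 3, against 11.6, 10.7 and 10.9 in control replicates 1 to 3, so the covariate overlaps with genotype. All 20 cardiomyocyte genes were detected, and 19 had a positive log2 fold change (median 0.90). Of 15 fibroblast genes, all had a negative log2 fold change, with a median of -0.40, and of 11 activated fibroblast genes all did, with a median of -0.70. Without deletion replicate 1 these medians were 0.47 for the cardiomyocyte, -0.20 for the fibroblast and -0.42 for the activated fibroblast genes. Their summed levels were 7912 to 16451 CPM in deletion scars against 15924 to 18793 CPM in controls for the fibroblast genes, and 1364 to 3692 CPM against 4588 to 5372 CPM for the activated ones. None of these genes passed in edgeR. DESeq2 with the split term called 18 of 20 cardiomyocyte genes higher, against 8.83% of all genes, and 2 of 15 fibroblast and 4 of 11 activated fibroblast genes lower, against 4.12% of all genes. The most abundant were Myh6 and Myh7, the cardiac myosin heavy chains, at 0.88 ± 0.49 and 0.31 ± 0.30 (SE), Col3a1 and Dcn among the fibroblast genes, at -0.51 ± 0.40 and -0.31 ± 0.30 (SE), and Postn and Fn1 among the activated ones, at -0.46 ± 0.38 and -1.16 ± 0.45 (SE). Macrophage genes were negative in 11 of 11, with a median of -0.53 and of -0.31 without deletion replicate 1, and DESeq2 with the split term called 4 of them lower. Epicardial genes were negative in 9 of 9, with a median of -1.16 and of -0.92 without deletion replicate 1. In replicates 2 and 3 alone their median was -0.18, and DESeq2 with the split term called 0 of them. Other cell types were mixed in sign. Endothelial genes were positive in 7 of 10, with a median of 0.31 and of -0.0583 without deletion replicate 1. Smooth muscle and pericyte genes were negative in 6 of 9 (median -0.21), and Schwann cell genes were positive in 6 of 9 (median 0.41).

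Set against the summed fibroblast genes in place of the library total, 6 members were lower in deletion scars. Per 10000 CPM of fibroblast genes, Chad was at 6.404, 19.7 and 50.6 CPM in deletion scars, against 23.8, 75.8 and 98.7 CPM in controls. On this scale the mean log2 difference was -3.78 for Col2a1, -1.63 for Col9a2, -1.60 for Chad, -1.02 for Comp, -0.89 for Acan and -0.78 for Col11a1. It was 0.00728 for Cilp, 0.30 for Matn2 and 0.34 for Col11a2, and -0.0324 for Sox9 itself. The divisor, the fibroblast sum, was 7912, 16451 and 15350 CPM in deletion replicates 1 to 3. Control replicates 1 to 3 had sums of 15924, 18750 and 18793 CPM. The low sum of deletion replicate 1 raises its ratios. How far the differences on this scale, that of Sox9 included, rest on deletion replicate 1 was not tested. This scale was added after seeing the data, and its values have no test.

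The authors' deposited values, called TMM in the header, differ from the CPM in their treatment of the library split. Over 11894 genes with at least 50 counts in every library, the log2 gap between replicate 1 of both groups and replicates 2 and 3 had an SD of 0.528 in CPM and of 0.0151 in the deposited values, so replicate 1 sits level with the others, gene by gene, in the deposited values. For the 9 members this gap ran from -3.63 (Col2a1) to -0.10 (Col9a2) in log2 CPM, and from -0.0776 to 0.00149 in the deposited values. Chad is an example: in the authors' deposited table it stands at 591, 607 and 1449 in deletion replicates 1 to 3, against 4408, 2690 and 3555 in control replicates 1 to 3. Control replicate 1, the lowest control for Chad in CPM, is the highest control there. Deposited values of the groups do not overlap in 6 of 9 members, Col2a1, Col9a2, Col11a1, Acan, Comp and Chad, against 18.8% of all genes. The authors' deposited table gives log2 fold changes of -4.72 for Col2a1, -2.09 for Col9a2, -2.01 for Chad, -1.51 for Comp, -1.42 for Acan and -1.30 for Col11a1. For Cilp, Matn2 and Col11a2 the authors' deposited table gives -0.52, -0.22 and -0.17. All 9 members have a deposited probability above 0.95, from 0.957 for Col11a2 upward, as do 79% of all genes in the authors' deposited table (44% with a lower value in deletion scars).

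**Figure D4:**
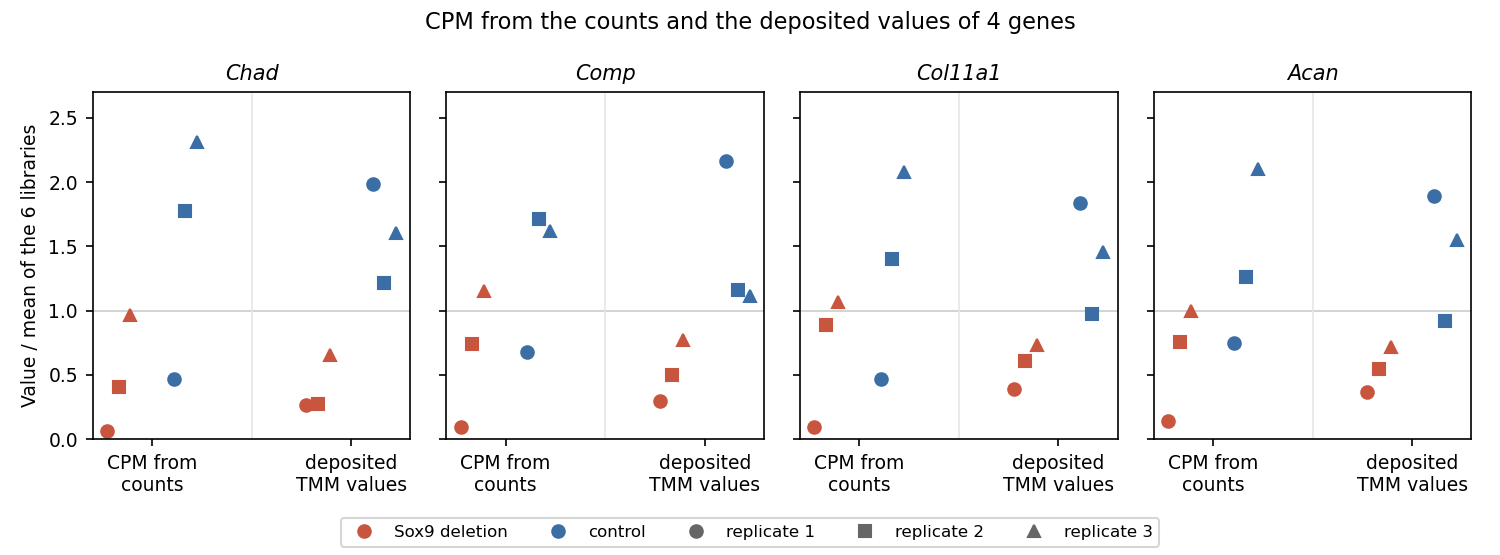
Each library's value divided by the mean of the 6 libraries for Chad, Comp, Col11a1 and Acan, as CPM from the counts (left in each panel) and as the authors' deposited values (right), with Sox9-deletion libraries left of control libraries and marker shape giving the replicate. Control replicate 1 is the lowest control in CPM and the highest control in the deposited values, and the groups separate in the deposited values but not in CPM.

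Other genes of the cartilage matrix, from a list of 28 symbols that includes older symbols of the same genes, were measured for 17 genes, and 16 had a negative log2 fold change with a median of -0.94. None passed in edgeR, 1 had an unadjusted p below 0.05 (Cilp2, a homologue of Cilp), and the groups did not overlap in Mgp, Cilp2 and Matn4, with deletion lower, against 8.6% of all genes. Cilp2, Chadl, Cytl1 and Hapln1 were named after their values were seen. DESeq2 with the split term called 8 of 17, all lower in deletion scars, against 4.12% of all genes in that direction. Levels within the list ranged widely. Matrix Gla protein (Mgp), an inhibitor of calcification and the most abundant of the list, was at 1326 ± 580.1 CPM in deletion scars and 2580.4 ± 622 CPM in controls (SD, n = 3 each). Prelp, a leucine-rich repeat protein that anchors basement membranes to connective tissue, was at 608 ± 361 CPM in deletion scars and 1168 ± 495 CPM in controls (SD, n = 3 each). Cytl1, which encodes a cytokine-like protein known from cartilage, was at 25.2 ± 19.3 CPM in deletion scars and 56.3 ± 23.6 CPM in controls (SD, n = 3 each). The lowest mean was that of Hapln1, the link protein gene whose product fixes aggrecan to hyaluronan and which is also a valve gene, at 0.0874 to 0.483 CPM in deletion scars and 0.111 to 2.25 CPM in controls. The exception in sign was Chadl, a homologue of Chad, at 0.11 ± 0.32 (SE). Without deletion replicate 1 the median of the list was -0.56, against -0.51 for the 9 members.

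Regulators of chondrocytes were measured for 16 of 21 genes, 13 with a negative log2 fold change and a median of -0.39. Sox9 is among them, and 0 passed in edgeR. DESeq2 with the split term called 2 lower, against 4.12% of all genes: Sox9 and the parathyroid hormone receptor gene Pth1r (DESeq2 adjusted p = 0.0270). It called 0 higher, against 8.83% of all genes. The groups did not overlap in Sox9 and Wwp2 with deletion lower, against 8.6% of all genes, and in Sox6 with deletion higher, against 8.87%. Wwp2 was named after its values were seen. Sox5, whose product binds DNA beside SOX9, was at 3.48, 6.95 and 10.7 CPM in deletion scars, against 6.12, 10.9 and 13.2 CPM in controls. The groups overlapped, with a log2 fold change of -0.51 ± 0.45 (SE). Sox6, the other partner, was at 19.8, 20.5 and 21.9 CPM in deletion scars, against 14.4, 18.9 and 16.2 CPM in controls, higher in every deletion library (log2 fold change 0.33 ± 0.15 SE, edgeR adjusted p = 0.564). The most abundant regulators were the collagen receptor gene Ddr2 and Mef2c, a transcription factor also active in muscle, at -0.30 ± 0.32 and 0.31 ± 0.19 (SE).

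**Figure D5:**
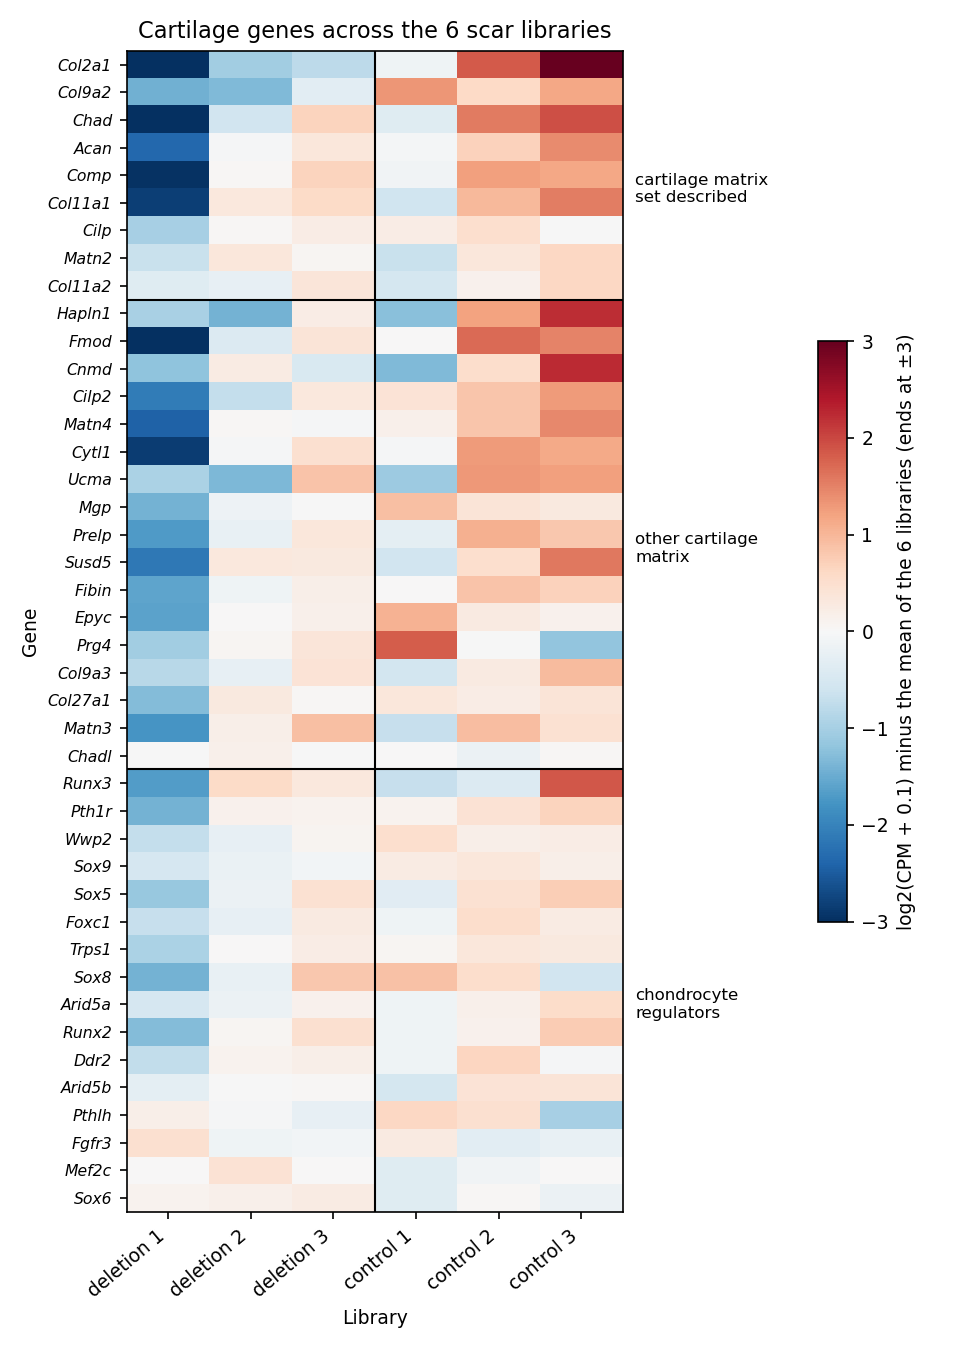
Log2(CPM + 0.1) minus the mean of the 6 libraries for the 9 genes described, 17 other cartilage matrix genes and 16 chondrocyte regulators, with Sox9-deletion libraries left and control libraries right of the line; colours end at ±3. Blue in deletion replicate 1 and red in control replicate 3 run through most of the matrix genes.

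Tendon, ligament and heart valve also make several of these genes. Of 10 tendon and ligament genes, 8 had a negative log2 fold change (median -0.63), and of 10 heart valve genes 9 did (median -0.53, Sox9 included). Thbs4 and Col14a1, the most abundant of the tendon list, were at -0.55 ± 0.62 and -0.48 ± 0.42 (SE), and Postn and Thbs1 of the valve list at -0.46 ± 0.38 and -0.62 ± 0.39 (SE). Scx, the transcription factor that defines tendon and is also active in valves, was at 12.5, 11.9 and 12.7 CPM in deletion scars, against 34.7, 17.3 and 9.93 CPM in controls. Tnmd (tenomodulin), a marker of mature tendon, stayed between 1.46 and 5.18 CPM in all libraries. Scx and Tnmd were named after their values were seen. None of these genes passed in edgeR. DESeq2 with the split term called 3 of 10 tendon and 2 of 10 valve genes lower, against 4.12% of all genes. It called 0 of either list higher, against 8.83% of all genes. The tendon calls were Fmod (edgeR log2 fold change -1.71 ± 0.85 SE), Col14a1 and Tnc, and the valve calls were Cthrc1 and Sox9.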

How the data were processed

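The labels name 2 groups of 3 libraries. Per the labels' protocols, total RNA was purified with RNeasy, and ScriptSeq v2 libraries used 100 ng; the series text speaks of polyadenylated RNA. Trim Galore, STAR, deepTools and mm10 are named in the submitters' processing notes without role or version, and how reads were counted, by which tool and on which strand, is not given in the sources used here. Raw counts per gene stand in the deposited table per the file headers, beside the authors' deposited signal values (called TMM), their means, the deposited log2 fold change of these means, and a deposited probability score from 0 to 1. No gene in the table has a mean count under 7.

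Counts were fitted with edgeR 4.0.16 in R 4.3.3 (TMM, filterByExpr, robust quasi-likelihood F test, genotype as the only term, Benjamini-Hochberg adjustment over 14771 genes, threshold 0.05), leaving 4 residual degrees of freedom. Standard errors are the log2 fold change divided by the square root of F. CPM are TMM-scaled, and log2 CPM used a prior count of 2. The ratio to fibroblast genes used a pseudocount of 0.05 CPM. Alternatives used DESeq2 1.42.0 and limma 3.58.1. An exact permutation test of 3 against 3 cannot go below 0.1, so none was used. The fits were tested on simulated data without a library split or a difference in sample makeup. That simulation therefore cannot tell how the fits behave where these are present. Overlaps came from GENCODE vM21 and promoters from RefSeq. Members and lists were chosen with earlier results of these data known. Genes named are the members, Sox9, Sox5 and Sox6, the 2 most abundant and any passing genes of a list, and the 5 genes nearest in profile, with exceptions stated.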

Additional observations from a re-analysis of the deposited data

How the results depend on the processing

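Depth limits the lowest values most, and Col2a1 had 0 to 42 counts in deletion scars. A level of 3 counts corresponds to 0.158 and 0.167 CPM in replicate 1 of the deletion and control groups. In replicates 2 and 3 it corresponds to 0.0497 to 0.0656 CPM. All counts there were even, so a count of 3 cannot occur and these limits are nominal. The direction of all 9 members held with DESeq2, limma-voom, RLE size factors, library totals alone, Rn45s left out, no filter, halved even counts, the split term, replicates 2 and 3 alone, the authors' deposited values and the replicate block. Calls depended on the test. DESeq2 called 52 genes and 1 member, and with the split term 1916 genes, 5 members and 9 genes of the other cartilage matrix and chondrocyte regulator lists (Sox9 not counted). The edgeR split term called 1 gene. In the replicate 1 pair the median of the members was -2.35, and Col11a2 was at 0.17. With the cardiomyocyte covariate the median was 0.39 and 2 members were negative; Acan was at 0.25, Col11a1 at 1.01, Col11a2 at 0.39, Comp at 0.61, Cilp at 0.0820, Chad at 0.44 and Matn2 at 0.65, and the cause was not tested. Per summed fibroblast genes, Col11a2 was at 0.34, Cilp at 0.00728 and Matn2 at 0.30. Leaving out each library in turn gave medians of -1.58 to -0.51, 7 to 9 negative members, Col11a2 from -0.47 to 0.12 and Matn2 from -0.52 to 0.0383 (both highest without control replicate 3); edgeR called 0 genes each time. Same-numbered libraries did not deviate together in every pair (correlations of 0.48, 0.0131 and 0.18), so the numbers were not taken to pair the libraries, although number 1 also marks the library split. With the replicate block, edgeR called 0 genes and the median was -1.31; deletion replicate 2 correlated best with control replicate 3 (0.39), not with its own number. Over all 210 values of single genes, Sox9 included, 13 changed sign, 7 gained a call and 184 were counted as unchanged. The other 6 came from settings without a test and moved by more than the replicate SD. In those settings unchanged meant the same sign and a shift within that SD. With a test it meant the same sign and no call, since edgeR had no call to lose. The split term in DESeq2, the fibroblast ratio and the deposited values were added after seeing the data.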

Other observations

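The mean profile of the 9 cartilage matrix genes over the 6 libraries, in log2 CPM centred on each gene's mean, was -2.20, -0.27 and 0.22 in deletion replicates 1 to 3, against -0.0768, 0.90 and 1.43 in control replicates 1 to 3. Among genes other than the members and predicted gene models, the 5 with the smallest root mean square distance from this profile were Disp2, Fam180a, Matn4, Gng8 and Frzb, at distances of 0.19 to 0.25 against a median of 1.15 over all such genes. Frzb, which encodes a secreted Frizzled-related Wnt antagonist first known from cartilage, was at 25.2, 85.3 and 121 CPM in deletion scars, against 161, 220 and 279 CPM in controls. Every deletion library was below every control. Matn4, the matrilin-4 gene, was at 0.422, 2.80 and 2.66 CPM in deletion scars, against 3.01, 4.90 and 7.48 CPM in controls. Fam180a was at 14.1 ± 8.51 CPM in deletion scars and 32.7 ± 20.5 CPM in controls (SD, n = 3 each). Because these genes were picked for their likeness, their differences between groups carry no test.

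Enzymes that degrade cartilage matrix and their inhibitor gave 8 of 10 genes with a negative log2 fold change (median -0.49), and none passed in edgeR. The inhibitor Timp3 was at 813 ± 317 CPM in deletion scars and 1348 ± 107 CPM in controls, and the membrane-type metalloproteinase Mmp14 at 195 ± 88.6 CPM in deletion scars and 285 ± 64.2 CPM in controls (SD, n = 3 each). Adamts4, an aggrecanase gene singled out with its values known, had levels of 6.07, 7.26 and 9.18 CPM in deletion scars, against 22.2, 11.5 and 10.4 CPM in controls, with no overlap between the groups. The groups did not overlap in Timp3, Adamts12 and Adamts4 with deletion lower, against 8.6% of all genes, and in Adamts7 with deletion higher, against 8.87% of all genes. Adamts7, which encodes a metalloproteinase that cleaves COMP, was at 31.1, 11.8 and 10.3 CPM in deletion scars, against 9.18, 9.87 and 9.11 CPM in controls.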
